A study of Mus musculus with 12 samples.

Results

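The genes described here are the protein-coding subunits of the ionotropic and metabotropic receptors for glutamate and GABA, taken by symbol from GENCODE M21: Gria, Grik, Grid, Grin and Grm genes with a number, the Gabr subunits and the Gabbr1 and Gabbr2 pair. The rule gave 47 genes of the 49671 in the count table. They fall into 4 AMPA, 5 kainate, 2 delta, 7 NMDA, 8 metabotropic glutamate, 19 GABA-A and 2 GABA-B genes. RNA-seq was done on total RNA from mouse brain tissue fixed in formalin and embedded in paraffin, in 12 libraries with 3 in each of 4 groups. The tumour groups carry the tumour genotype IDH1_R132H (the glioma-associated IDH1 mutant), IDH1WT (the unmutated enzyme) or PDGFA (a growth factor that activates the receptor Pdgfra), and their mice carry the transgene N::TVA and floxed alleles, among them those of Cdkn2a and Atrx. Whether the IDH1_R132H and IDH1WT tumours also received PDGFA is not said in the labels, so what sets them apart from the PDGFA tumours is known only by these names. The normal brains come from mice with the same floxed alleles that are marked TVA neg, so all 4 groups share the floxed background. TVA is the receptor for the avian retroviral vectors of this model, and its transgene is under the nestin promoter, which is active in neural progenitors. The labels give neither age nor brain region, and they do not say that the libraries of a group came from separate animals, so p-values measure the spread between these libraries.

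Glutamate opens AMPA, kainate and NMDA receptor channels, which carry fast excitation, and acts more slowly through metabotropic receptors coupled to G proteins. GABA opens the chloride-conducting GABA-A channels and activates the metabotropic GABA-B receptor. Each channel is assembled from several subunits whose mix differs between brain regions and cell types, and glial cells, including the oligodendrocyte precursors that resemble the cells of many gliomas, also express some of them.

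Levels are CPM, counts scaled to a common library total, after scaling the libraries by trimmed mean of M-values (TMM) factors. Changes are log2 fold changes from edgeR's quasi-likelihood test, with Benjamini-Hochberg adjustment over all 17812 tested genes. The ± SE beside a change is its absolute value divided by the square root of that test's F statistic. A gene was called at an adjusted p under 0.05. Total counts ran from 6507923 to 14277395 per library. The library IDH1_R132H 3 gave 35.6% of its counts to a single gene, Gm42418, against 0.218% to 0.855% in the rest. Marker genes of oligodendrocyte precursors summed to 919.6 to 969 CPM in the normal brains and 879 to 9353 CPM in the tumours. Of these, 12 of 15 were called higher in tumours, but the library labelled PDGFA 1 held the lowest tumour sum, below every normal brain. The median log2 CPM of the 15 markers was nevertheless 5.45 in PDGFA 1, above the 4.69 to 4.70 of the normal brains. That library also had the lowest astrocyte marker sum (1167 CPM against 3700.3 to 6608 in the others) and the highest neuron marker sum. Neuron markers summed to 10404 to 11032 CPM in the normal brains and 5150.1 to 12789 CPM in the tumours, with 1 of 20 called lower and none higher; none of the 20 was at 0 in either group. In bulk tissue, fewer neurons and less RNA per neuron cannot be told apart. Normal brains 1 and 2 were closer to each other (chi-square per gene 2.59) than any other pair within a group (12.3 to 347), though above the 1 of sampling noise.

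Most receptor subunit genes lay lower in tumours than in normal brain, but few passed the test. Of the 47 genes, 43 passed the filter on low counts; Grin3b, Gabrp, Gabrr1 and Gabrr3 did not, with at most 8 reads in any library. Comparing the 9 tumours with the 3 normal brains, 2 of 43 were called, against 5.22% of all tested genes. Both, the NMDA subunit gene Grin2c and the metabotropic receptor gene Grm3, were lower (background 1.5%), and none was higher (background 3.71%). The fitted change was below 0 for 34 of 43 subunits, against 51.3% of all genes, with a median of -0.34 among the subunits and -0.014 over all genes. At an unadjusted p under 0.05, 15 subunits differed (34.9%, background 23.6%), 13 of them lower (30.2%, background 10.3%) and 2 higher (4.65%, background 13.3%).

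The number of calls moved with single libraries. Without PDGFA 1 it was 9 of 43 (13.5% of all genes), without IDH1_R132H 3 it was 2 (4.79%) and without both 11 (15.7%). Grin2c alone was called without IDH1_R132H 2 (1.95% of all genes) or PDGFA 2 (4.07%). Without any 1 of the normal brains the count was 0, when 0 to 3 of all genes were called. For 6 of 43 subunits every tumour lay below every normal brain (14.0%, background 2.84%): Gria1, Grin2a, Grin2c, Grm3, Grm7 and Gabbr2. No subunit had every tumour above every normal brain (background 4.67%). By library, the median difference of the 43 subunits from the normal mean on the log2 CPM scale was -0.60, -0.51 and -0.16 with IDH1_R132H, -0.12, -0.90 and -0.44 with IDH1WT and -0.01, -0.17 and -0.53 with PDGFA, while the median over all genes stayed within 0.02 of 0. By this median IDH1WT 2 was the lowest library and PDGFA 1 stood at the normal level. Within PDGFA 1, however, 16 of 43 subunits lay below the range of the normal brains and 15 above it. IDH1WT 2 and PDGFA 1 were also the libraries with the lowest and the highest neuron marker sum (5150.1 and 12789 CPM). The part of neuron content in the result was not tested.

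**Figure D1:**
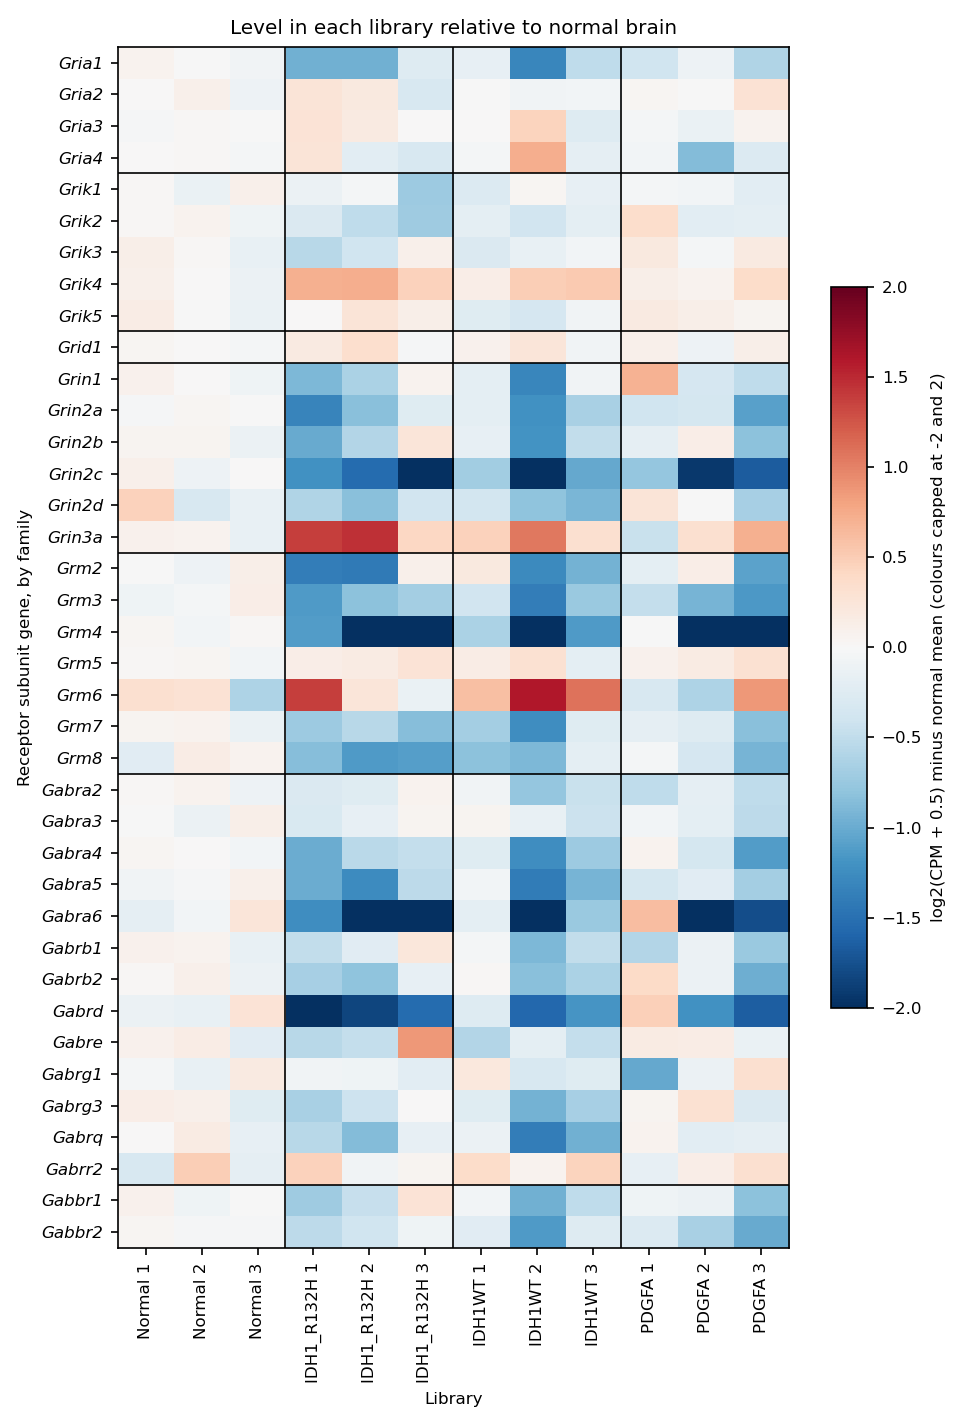
Heat map of 38 of the tested subunit genes (rows, by family) over the 12 libraries (columns, by group); colour gives log2(CPM + 0.5) less the mean of the normal brains, capped at -2 and 2. Most rows are blue (lower) in most tumours. Over the 43 tested subunits the median was lowest in IDH1WT 2 and near the normal level in PDGFA 1.

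**Figure D2:**
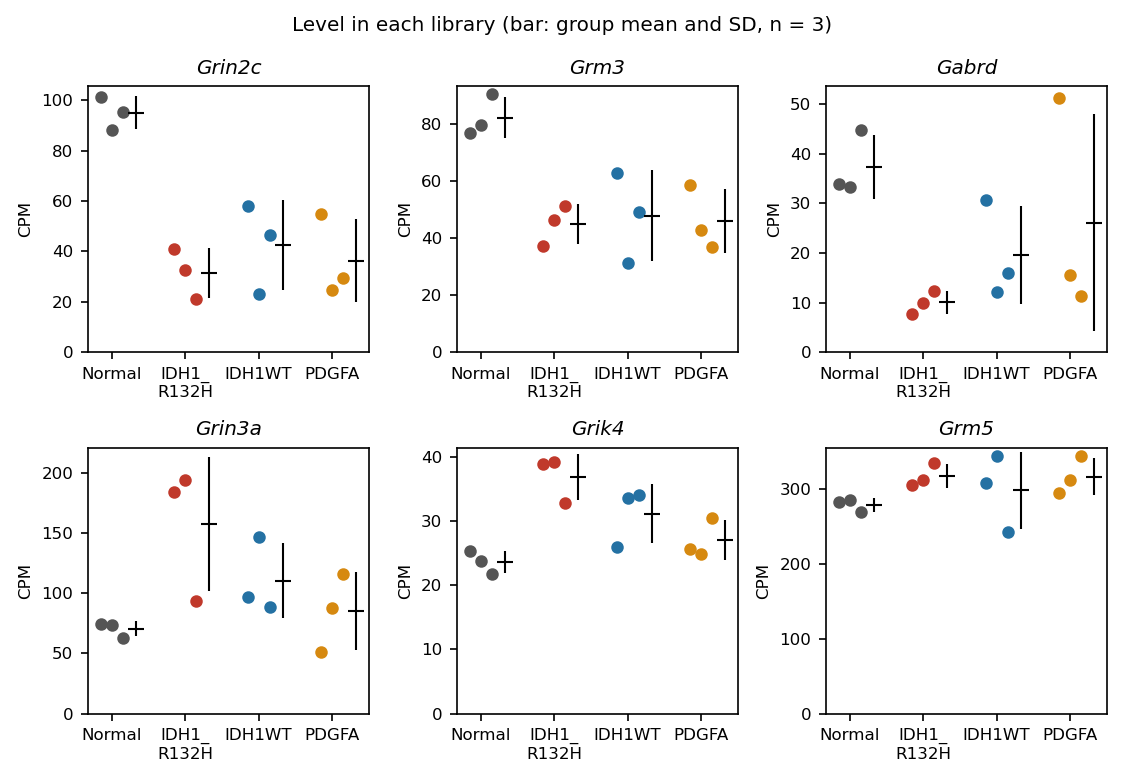
CPM in each library (points, by group) of Grin2c, Grm3, Gabrd, Grin3a, Grik4 and Grm5, with the group mean and SD (n = 3) beside the points. Grin2c and Grm3 have no tumour within the normal range, while Grm5 overlaps between the groups.

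NMDA receptors need the Grin1 subunit together with Grin2 or Grin3 subunits. Grin2c (ENSMUSG00000020734, chromosome 11, 115249169 to 115267243, minus strand, GRCm38), the subunit typical of cerebellar granule cells and also found in thalamus and astrocytes, fell in tumours. Grin2c was at 101, 88.2 and 95.2 CPM over the normal libraries, against 40.8, 32.5 and 20.9 with IDH1_R132H, 58.0, 22.9 and 46.6 with IDH1WT and 55.0, 24.5 and 29.5 with PDGFA. Every tumour lay below the lowest normal brain, and the smallest tumour value was in IDH1_R132H 3. The log2 fold change was -1.38 ± 0.27 (edgeR adjusted p = 0.0193), from a mean of 95.0 ± 6.58 (SD, n = 3) to 36.8 ± 14.0 CPM (SD, n = 9). Without 1 normal brain its adjusted p in edgeR was 0.0903 to 0.123, and the direction held.

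The promoter windows of 3 subunit genes are shown for their contrast in base composition: the 250 bases before the RefSeq start site (GRCm38.p6), 5′ to 3′ on the gene's strand. Capitals mark GGGCGG or its reverse complement CCGCCC, the core of a GC box. Grin2c and Grm3 were the 2 genes called lower in tumours, and Gabra6 varied most among the tumours on the log2 scale. The windows lie at chr11:115267244-115267493, chr5:9725353-9725602 and chr11:42321073-42321322, all on the minus strand.
Grin2c: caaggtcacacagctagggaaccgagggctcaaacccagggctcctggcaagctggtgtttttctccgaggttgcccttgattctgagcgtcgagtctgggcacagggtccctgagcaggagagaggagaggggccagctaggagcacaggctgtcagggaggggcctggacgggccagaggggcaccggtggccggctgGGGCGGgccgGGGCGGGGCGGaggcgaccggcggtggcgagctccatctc
Grm3: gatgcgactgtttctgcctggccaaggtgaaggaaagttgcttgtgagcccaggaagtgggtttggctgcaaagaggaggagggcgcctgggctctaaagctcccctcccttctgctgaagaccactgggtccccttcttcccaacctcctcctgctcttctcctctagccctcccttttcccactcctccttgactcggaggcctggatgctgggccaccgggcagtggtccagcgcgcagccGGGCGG
Gabra6: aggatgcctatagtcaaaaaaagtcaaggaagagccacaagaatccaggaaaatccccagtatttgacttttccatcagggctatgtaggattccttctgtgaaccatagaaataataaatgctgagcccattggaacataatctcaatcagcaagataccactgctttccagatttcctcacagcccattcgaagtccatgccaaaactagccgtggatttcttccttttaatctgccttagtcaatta

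The Grin2c window holds 3 matches, the last pair of which overlap by 1 base, and 15 CpG dinucleotides. Grm3 has 1 match and 8 CpGs, and Gabra6 no match and 2 CpGs, where the median over 32851 windows is 6. GGGCGG on either strand was found in 46.2% of the 39 windows of the 32 subunit genes that RefSeq lists in this table, and in 32.7% of all windows. TGACG on either strand, the core of a cyclic AMP response element, was found in 7.69% and 17.8%, and CAGCTG, an E-box that reads the same on both strands, in 2.56% and 13.0%. These matches describe the letters of the windows only.

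Grin2b, a main partner of Grin1 in the forebrain, was the NMDA subunit with the highest mean. It was at 1294, 1287 and 1150.2 CPM over the normal libraries, against 614, 832 and 1477 with IDH1_R132H, 1113, 539 and 885 with IDH1WT and 1092, 1362 and 702 with PDGFA. The groups overlapped (log2 fold change -0.38 ± 0.28, edgeR adjusted p = 0.436). Grin2a, the partner that takes over from Grin2b as the brain matures, ran from 538 to 564 CPM in the normal brains and 219 to 477 CPM in the tumours (median 351), without overlap (-0.65 ± 0.24, adjusted p = 0.127 in edgeR). Grin1 had a log2 fold change of -0.27 ± 0.30 and Grin2d, the subunit of brainstem and interneurons, of -0.50 ± 0.22; neither was called. Antisense genes overlap 13.47% of the Grin1 and 9.66% of the Grin2d exon length, and the strand setting of the counting is not given in the sources used here, so both counts are uncertain.

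Grin3a (ENSMUSG00000039579, chromosome 4, 49661611 to 49845744, minus strand), a subunit that lowers calcium entry through NMDA receptors, was called higher in IDH1_R132H tumours. It was at 74.7, 73.8 and 63.2 CPM over the normal libraries, against 184, 194 and 93.5 with IDH1_R132H, 96.5, 146 and 88.5 with IDH1WT and 51.4, 88.0 and 116 with PDGFA. All 3 IDH1_R132H tumours lay above the normal brains, as did 8 of the 9 tumours, the exception being PDGFA 1. The log2 fold change was 1.16 ± 0.32 for IDH1_R132H against normal brain (edgeR adjusted p = 0.048) and 0.69 ± 0.27 for all tumours (adjusted p = 0.143). The call in IDH1_R132H was lost without any 1 normal brain, IDH1_R132H 1 or 2, IDH1WT 1 or 3, or PDGFA 2 (highest adjusted p 0.172), and in limma on the deposited log2 values (adjusted p = 0.0633). Grin3b, the other NR3 subunit, stayed at 0.0829 to 0.854 CPM and was not tested; a protein-coding gene on the opposite strand, Tmem259, covers 32.13% of its exons.

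Shares of a receptor family were taken on CPM per kilobase of exon, which sets genes of different length side by side. Of all NMDA subunit RNA, Grin2c made up 12.9% to 14.7% in the normal brains and 3.27% to 10.6% in the tumours, with no overlap. By coding length the same share was 4.27% to 4.98% in the normal brains and 0.991% to 3.60% in the tumours, so its size rests on the length used. Grin3a made up 4.02% to 4.43% in the normal brains and 3.26% to 19.7% in the tumours. Among the Grin2 genes alone, Grin2b took 47.2% to 50.2% in the normal brains and 52.5% to 64.9% in the tumours, so that every tumour was above every normal brain although the Grin2b level itself was not. The order of the groups was the same with coding length in place of exon length for all 3 shares, but the Grin2b share of all NMDA subunits was not stable: its mean difference between tumours and normal brain was 0.93 percentage points by exon length and -0.69 by coding length.

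**Figure D3:**
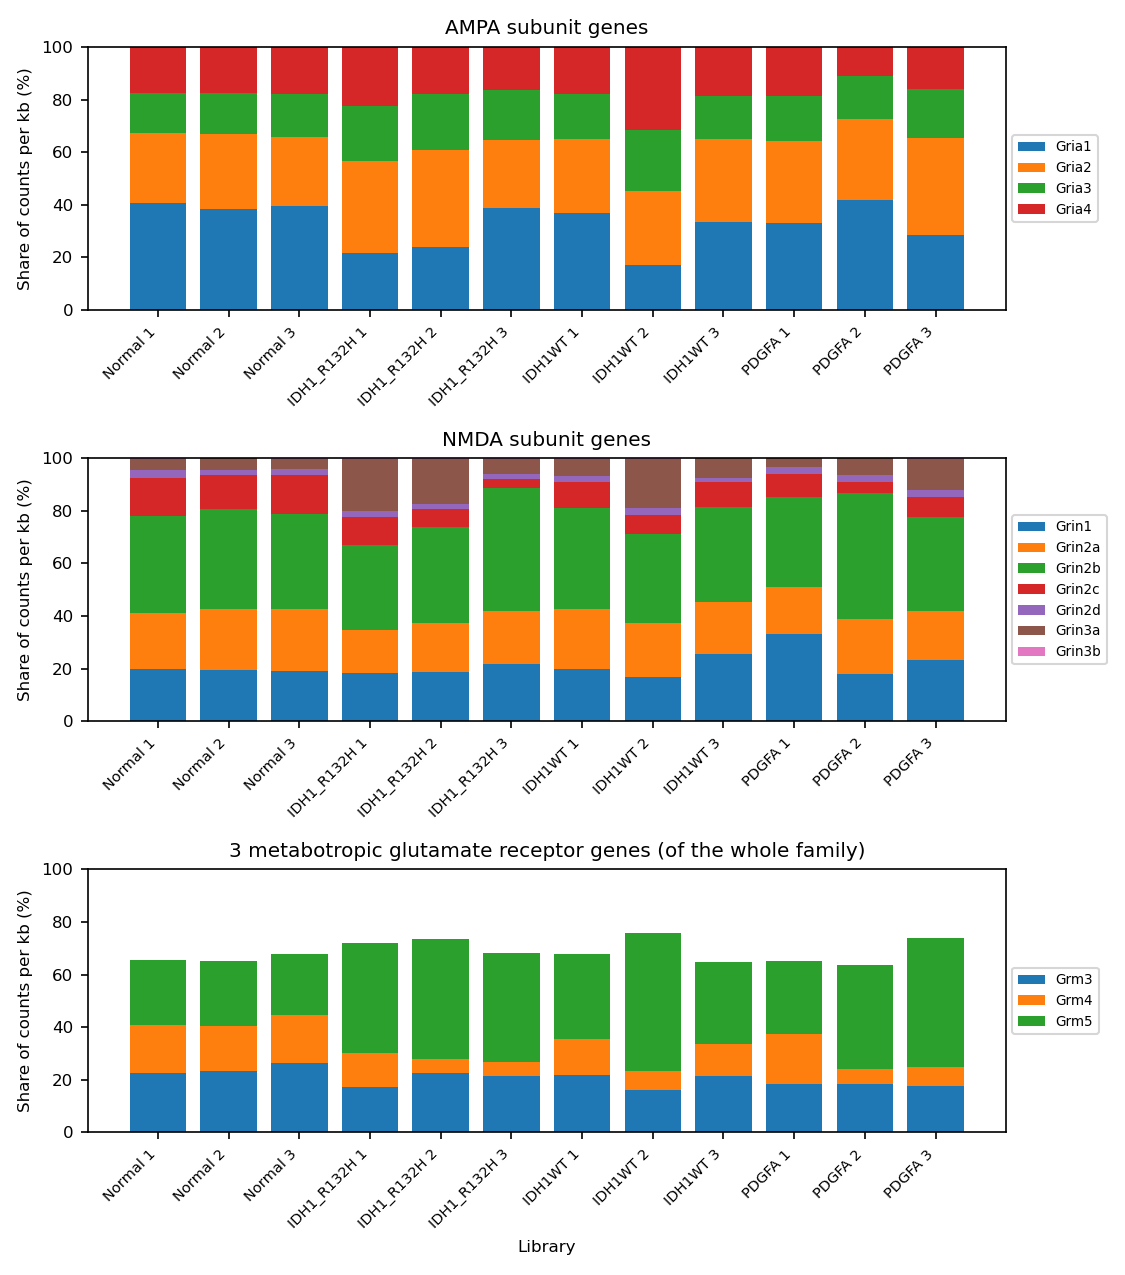
Stacked bars of the share of each AMPA and NMDA subunit gene, and of Grm3, Grm4 and Grm5 among metabotropic glutamate receptor genes, in its family, in percent of counts per kilobase of exon, for each of the 12 libraries. The Grin2c share is smaller and the Grm5 share larger in all 9 tumours than in any normal brain.

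Metabotropic glutamate receptors are grouped by their G protein: Grm5 activates phospholipase C, while Grm2, Grm3, Grm4, Grm6, Grm7 and Grm8 couple to inhibitory G proteins. Grm3 (ENSMUSG00000003974, chromosome 5, 9485541 to 9725170, minus strand), which astrocytes express as well as neurons, fell in tumours. It was at 76.9, 79.6 and 90.4 CPM over the normal libraries, against 37.2, 46.2 and 51.1 with IDH1_R132H, 63.0, 31.2 and 49.1 with IDH1WT and 58.6, 43.0 and 36.8 with PDGFA. All 9 tumours lay below the normal brains. The log2 fold change was -0.83 ± 0.19 (edgeR adjusted p = 0.0306), and the call was lost without any 1 normal brain, IDH1_R132H 2, IDH1WT 3 or PDGFA 2 (highest adjusted p 0.146).

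Grm5, the family member with the highest mean, was not called. Grm5 was at 283, 285 and 269 CPM over the normal libraries, against 306, 312 and 335 with IDH1_R132H, 309, 344 and 242 with IDH1WT and 295, 312 and 344 with PDGFA. The groups overlapped, and the log2 fold change was 0.16 ± 0.13 (edgeR adjusted p = 0.501). Its share of metabotropic glutamate receptor RNA was 23.4% to 24.9% in the normal brains and 27.7% to 52.7% in the tumours, higher in all 9 tumours than in any normal brain, by either gene length. Grm3 took 22.6% to 26.5% in the normal brains and 16.1% to 22.7% in the tumours.

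Grm4, a presynaptic receptor of cerebellar granule cells, had the largest fitted fall of the family. It was at 122, 114 and 120.2 CPM over the normal libraries, against 54.4, 21.1 and 25.7 with IDH1_R132H, 76.3, 27.4 and 53.8 with IDH1WT and 118, 26.0 and 28.6 with PDGFA. Only PDGFA 1 reached the normal level, and the change was not called (-1.35 ± 0.41, adjusted p = 0.0746 in edgeR); without PDGFA 1 the adjusted p was 0.00318, and without any other 1 library 0.0584 to 0.249. Grm8 (ENSMUSG00000024211, chromosome 6, 27275119 to 28135178, minus strand) was at 20.1, 26.2 and 24.6 CPM over the normal libraries, against 12.8, 10.5 and 10.7 with IDH1_R132H, 13.1, 12.3 and 20.4 with IDH1WT and 22.8, 18.6 and 12.1 with PDGFA. It was called lower in IDH1_R132H against normal brain (-1.06 ± 0.26, adjusted p = 0.0327 in edgeR), where the 3 tumours did not reach the normal range. That call was lost without any 1 IDH1_R132H tumour or normal brain (highest adjusted p 0.130). Grm7, found at presynaptic active zones, ran from 68.1 to 78.1 CPM in the normal brains and 31.1 to 65.8 CPM in the tumours (median 46.5), without overlap (-0.60 ± 0.19, adjusted p = 0.078).

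Grm2, mostly a presynaptic receptor, had a log2 fold change of -0.54 ± 0.37 (edgeR adjusted p = 0.405). Grm6, known from retinal ON bipolar cells, was near the limit of detection at 0.462, 0.439 and 0 CPM over the normal libraries, against 1.499, 0.407 and 0.197 with IDH1_R132H, 0.663, 1.83 and 1.13 with IDH1WT and 0.112, 0 and 0.906 with PDGFA. Its fitted rise of 1.19 ± 0.97 rests on 0 to 15 reads per library and was not called. Antisense genes overlap 9.60% of the Grm2 and 11.05% of the Grm6 exon length.

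None of the 4 AMPA subunits was called in any comparison in edgeR with all libraries in the fit. With only the groups compared, Gria1 was called lower in IDH1_R132H against normal brain. Limma voom with sample weights called Gria1 lower in tumours, IDH1_R132H and IDH1WT against normal brain. In tumours that test called 33.7% of all genes, 3016 of 17812 being lower. Gria2, which makes AMPA channels impermeable to calcium and had the highest mean of the 4, was at 683, 729 and 632 CPM over the normal libraries, against 815, 777 and 547 with IDH1_R132H, 675, 645 and 658 with IDH1WT and 698, 678 and 831 with PDGFA. Its groups overlapped, with a log2 fold change of 0.04 ± 0.15 (edgeR adjusted p = 0.897). Gria3 had the largest fitted rise, 0.07 ± 0.15, at 251, 258 and 251 CPM over the normal libraries, against 305, 288 and 256 with IDH1_R132H, 255, 345 and 213 with IDH1WT and 246, 232 and 266 with PDGFA. These groups overlapped too. Gria4, which oligodendrocyte precursors also express, ran from 174 to 181 CPM in the normal brains and 97.4 to 296 CPM in the tumours (median 157) (-0.07 ± 0.21, adjusted p = 0.886).

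Gria1 was at 404, 383 and 368 CPM over the normal libraries, against 198, 198 and 320.1 with IDH1_R132H, 342, 156 and 269.6 with IDH1WT and 292, 357 and 252 with PDGFA. All 9 tumours lay below the normal brains, but the spread among tumours was wide and the log2 fold change of -0.55 ± 0.22 was not called (edgeR adjusted p = 0.151). Of AMPA subunit RNA per kilobase of exon, Gria1 made up 38.4% to 40.6% in the normal brains and 17.3% to 41.7% in the tumours, with the lowest shares in IDH1WT 2 and IDH1_R132H 1 (17.3% and 21.9%). By coding length its share was 24.3% to 26.2% in the normal brains and 10.6% to 25.7% in the tumours.

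Among the kainate subunits, Grik4 was the only one called in edgeR with all libraries in the fit. In IDH1_R132H against normal brain, edgeR also called Grik2 lower with only the groups compared or without PDGFA 1, and voom weights called Grik2 and Grik3 lower. Grik4 (ENSMUSG00000032017, chromosome 9, 42518135 to 42944493, minus strand), which binds kainate tightly but needs Grik1, Grik2 or Grik3 to form a channel, was at 25.3, 23.8 and 21.8 CPM over the normal libraries, against 38.8, 39.2 and 32.8 with IDH1_R132H, 25.9, 33.5 and 34.1 with IDH1WT and 25.7, 24.9 and 30.5 with PDGFA. The 3 IDH1_R132H tumours lay above the normal brains, and the log2 fold change was 0.65 ± 0.16 (edgeR adjusted p = 0.034); over all tumours it was 0.41 ± 0.13 (adjusted p = 0.0877). The call in IDH1_R132H was lost without IDH1_R132H 1 or 2 or any 1 normal brain (highest adjusted p 0.138) and with no low count filter (adjusted p = 0.186). Its share of kainate subunit RNA was 6.68% to 6.85% in the normal brains and 6.52% to 11.7% in the tumours. PDGFA 1 was the only tumour not above the normal brains in that share.

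Grik5, the other high-affinity subunit and the one with the highest mean, was at 183, 163 and 149 CPM over the normal libraries, against 165, 196 and 179 with IDH1_R132H, 139, 129.8 and 157 with IDH1WT and 185, 178 and 171 with PDGFA. Its log2 fold change was 0.01 ± 0.12 (edgeR adjusted p = 0.982). Grik2, a channel-forming subunit with the largest fitted fall of the family, was at 85.1, 88.1 and 78.7 CPM over the normal libraries, against 68.4, 58.7 and 51.1 with IDH1_R132H, 73.0, 64.4 and 73.6 with IDH1WT and 107, 72.1 and 73.6 with PDGFA. Its log2 fold change of -0.25 ± 0.14 was not called (adjusted p = 0.302), and PDGFA 1 was the highest of the 12 libraries. Grik1 and Grik3 had log2 fold changes of -0.17 ± 0.15 and -0.11 ± 0.14. Grid1, a delta receptor subunit that joins synapses through cerebellins, was at 66.4, 65.1 and 63.2 CPM over the normal libraries, against 73.2, 81.6 and 63.7 with IDH1_R132H, 68.7, 76.8 and 61.4 with IDH1WT and 69.5, 60.6 and 70.3 with PDGFA (0.10 ± 0.12, adjusted p = 0.642), and its groups overlapped.

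In edgeR on the filtered genes with all libraries in the fit, no GABA receptor gene was called between tumours and normal brain, and 1, Gabrd, was called in IDH1_R132H against normal brain. DESeq2 called Gabrd lower in tumours too (579 of 42482 genes lower), and Gabra5 beside Gabrd lower in IDH1_R132H (815 of 42482). Voom weights called 13 lower in tumours, where 3016 of 17812 genes were called lower (33.7% in either direction). With no filter on low counts edgeR called 4 lower in tumours, Gabra4, Gabra5, Gabra6 and Gabrd, where 795 of 42503 genes were. GABA-A receptors combine alpha and beta subunits with a gamma or a delta subunit, and 19 genes encode them. Of the 16 tested, 15 had a fitted change below 0. Alpha subunit genes of forebrain neurons had log2 fold changes of -0.32 ± 0.15 for Gabra2, -0.18 ± 0.14 for Gabra3, -0.58 ± 0.23 for Gabra4 and -0.67 ± 0.23 for the extrasynaptic Gabra5. On the filtered genes with all libraries in the fit, edgeR called none of them. With only the groups compared it called Gabra4 and Gabra5 lower in IDH1_R132H (20.3% of all genes called). In tumours it called Gabra4 lower without PDGFA 1 (13.5%) and Gabra5 lower without IDH1WT 1 (7.12%).

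Gabrd (ENSMUSG00000029054, chromosome 4, 155384980 to 155398112, minus strand), the delta subunit of extrasynaptic receptors that carry tonic inhibition, was at 33.8, 33.3 and 44.7 CPM over the normal libraries, against 7.77, 9.97 and 12.4 with IDH1_R132H, 30.7, 12.1 and 16.0 with IDH1WT and 51.3, 15.6 and 11.4 with PDGFA. The 3 IDH1_R132H tumours lay below every normal brain (-1.90 ± 0.51, adjusted p = 0.0435 in edgeR). Over all tumours the log2 fold change of -1.11 ± 0.37 was not called (adjusted p = 0.0969), and PDGFA 1 lay above the normal brains. Without PDGFA 1 the adjusted p over all tumours was 0.00375, and without any other 1 library 0.0538 to 0.308. The call in IDH1_R132H was lost without any 1 IDH1_R132H tumour or normal brain, or without IDH1WT 3 (highest adjusted p 0.146).

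Gabra6, the alpha subunit typical of cerebellar granule cells, had the widest spread among the tumours of any tested subunit on the log2 scale. It was at 65.6, 71.9 and 88.5 CPM over the normal libraries, against 31.3, 0.509 and 11.8 with IDH1_R132H, 64.9, 16.5 and 44.5 with IDH1WT and 115, 0.746 and 21.5 with PDGFA. The fitted change of -1.32 ± 0.93 was not called (edgeR adjusted p = 0.425). The lowest values were in IDH1_R132H 2 and PDGFA 2 and the highest in PDGFA 1.

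The beta subunit genes Gabrb1 and Gabrb2 had log2 fold changes of -0.34 ± 0.20 and -0.36 ± 0.25. The gamma subunit genes Gabrg1 and Gabrg3 had log2 fold changes of -0.14 ± 0.22 and -0.30 ± 0.18, with no call. Gabrq and Gabre, at means of 9.13 ± 1.08 and 2.05 ± 0.343 CPM in normal brain (SD, n = 3), had fitted changes of -0.47 ± 0.26 and -0.14 ± 0.35. Gabrr2, a rho subunit best known from retina, had the largest fitted rise, 0.27 ± 0.43 (edgeR adjusted p = 0.746), at 0.346, 0.988 and 0.438 CPM over the normal libraries, against 0.954, 0.509 and 0.592 with IDH1_R132H, 0.861, 0.610 and 0.941 with IDH1WT and 0.447, 0.663 and 0.816 with PDGFA, that is 3 to 13 reads per library. Gabrp, Gabrr1 and Gabrr3 had 0 to 8 reads per library and were not tested. A non-coding gene on the opposite strand overlaps 6.53% of the Gabrr3 exon length.

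The GABA-B receptor is an obligate pair of Gabbr1, which binds GABA, and Gabbr2, which couples to the G protein. Gabbr1 was at 651, 582 and 614 CPM over the normal libraries, against 374, 447 and 745 with IDH1_R132H, 589.8, 316 and 432 with IDH1WT and 577, 565 and 348 with PDGFA. The groups overlapped (-0.34 ± 0.24, adjusted p = 0.417 in edgeR). Gabbr2 was at 378, 359 and 361 CPM over the normal libraries, against 254, 278 and 344 with IDH1_R132H, 312, 167 and 305 with IDH1WT and 303, 233 and 182 with PDGFA. All 9 tumours lay below the normal brains, but the change was not called (-0.47 ± 0.20, adjusted p = 0.168). Per kilobase of exon, Gabbr1 had the highest normal mean of all 47 genes (79.3 ± 4.44 CPM per kilobase, SD, n = 3), followed by Gria1 (63.7 ± 3.01) and Gabbr2 (54.7 ± 1.53).

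**Figure D4:**
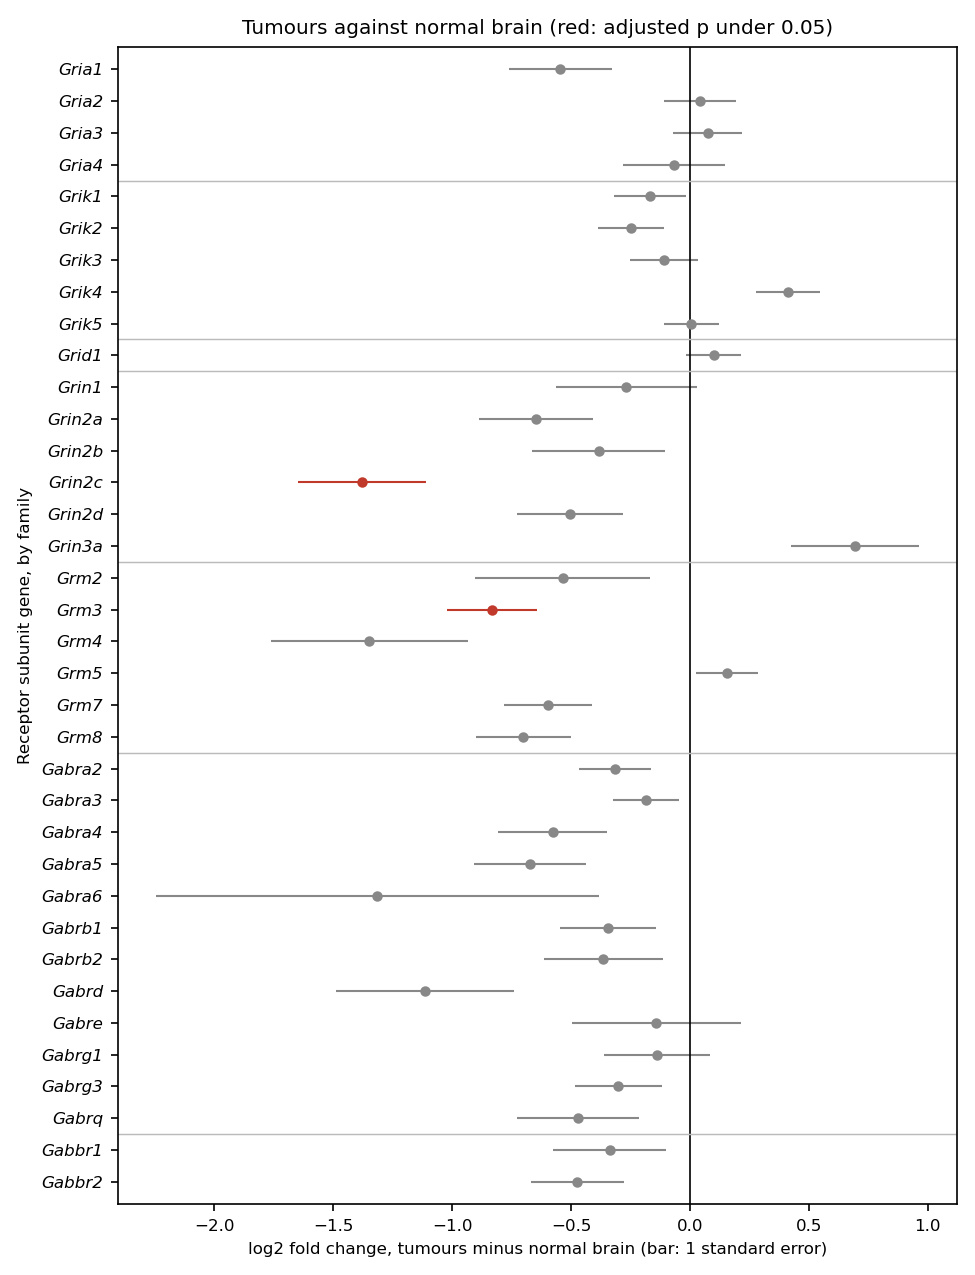
Log2 fold change of tumours against normal brain (x axis, bar: 1 standard error) for 36 of the tested subunit genes, by family; Grm6 and Gabrr2, with few reads, are among those left out. The 2 called genes, Grin2c and Grm3, are red, and 29 points lie below 0.

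Gabra6, Gabrd, Grm4 and Grin2c, which cerebellar granule cells express, were set beside the cerebellar markers. The 12 granule and Purkinje cell markers summed to 2382 to 2451 CPM in the normal brains and 543 to 2638 CPM in the tumours. The lowest sums were in IDH1_R132H 2 (543 CPM) and PDGFA 2 (699 CPM), where Gabra6 stood at 0.509 and 0.746 CPM and the granule cell markers Cbln3 and Fat2 at 1.12 and 2.95 and at 0.497 and 3.48 CPM. The highest sum was in PDGFA 1 (2638 CPM), where Gabra6 was 115, Gabrd 51.3 and Grm4 118 CPM, each above or within the normal range. Grin2c was below the normal range there too, at 55.0 CPM. At the low end, Gabra6 and Grm4 (21.1 CPM) were lowest in IDH1_R132H 2, but Gabrd and Grin2c were not. Gabrd was lowest in IDH1_R132H 1 (7.77 CPM, marker sum 1129 CPM), against 9.97 CPM in IDH1_R132H 2. Grin2c was lowest in IDH1_R132H 3 (20.9 CPM, marker sum 938 CPM). None of the 12 markers was at 0 over either group, and 1, Itpr1, was called lower. The part of cerebellar content in the levels of Gabra6, Grin2c, Grm4 and Gabrd was not tested in any library. Without IDH1_R132H 2 and PDGFA 2 together, no subunit was called between tumours and normal brain, near the 1.35% of all genes called there: Grin2c was at -1.30 (edgeR adjusted p = 0.0571) and Grm3 at -0.81 (adjusted p = 0.0933).

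**Figure D5:**
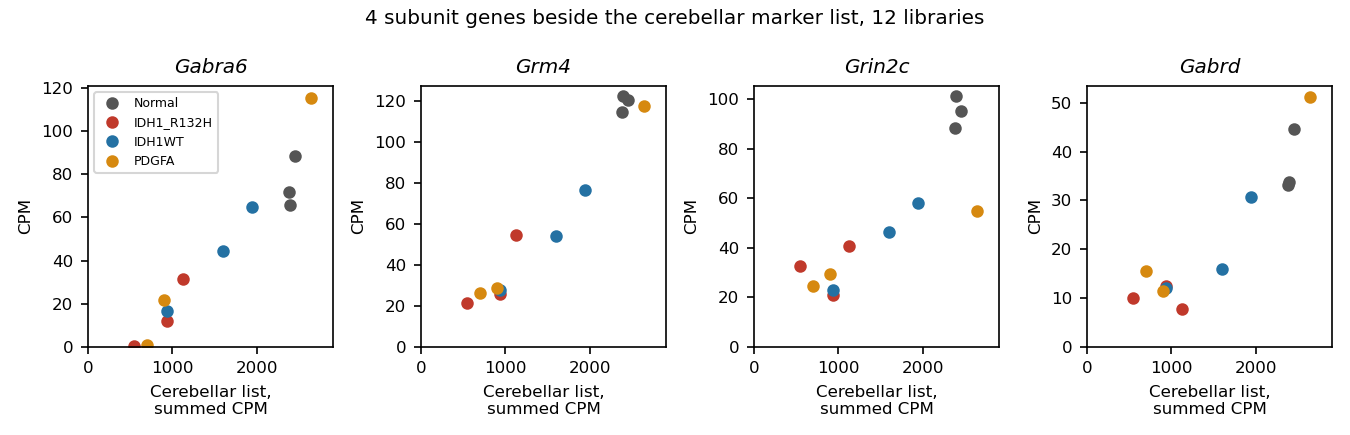
CPM of Gabra6, Grm4, Grin2c and Gabrd (y axes) against the summed CPM of the 12 cerebellar granule and Purkinje cell markers (x axis), 1 point per library, coloured by group. PDGFA 1 has the highest marker sum and IDH1_R132H 2 the lowest.

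The 3 tumour groups were each set against the same normal brains, so their comparisons share those libraries. In IDH1_R132H tumours, 6 of 43 subunits were called, against 7.17% of all genes: Grin2c, Grm3, Grm8 and Gabrd were lower (background 2.35%), and Grik4 and Grin3a were higher (background 4.83%). The Grin2c change was -1.59 ± 0.36 (edgeR adjusted p = 0.0256) and the Grm3 change -0.88 ± 0.24 (adjusted p = 0.0494). The count rested on single libraries. It was 1, Grin2c, without IDH1_R132H 1 (3.49% of all genes), 0 without IDH1_R132H 2 (1 of all genes called) and 2, Grik4 and Grin3a, without IDH1_R132H 3 (4.53%), where the 4 lower calls were lost. Without any 1 normal brain it was 0, with 0 or 1 of all genes called, and without IDH1WT 3 it was 3 (5.07%). It was 9 without PDGFA 1 (12.2%) and 8 without PDGFA 1 and IDH1_R132H 3 (11.6%). In IDH1WT tumours none of 43 was called in edgeR (background 1.72%), 10 had an unadjusted p under 0.05 (background 18.9%), and DESeq2 called 2, Grin2c and Grm3 (2.88% of all genes). Without IDH1WT 1, edgeR called 3, Gabra5, Gabrq and Grm3, all lower (3.65% of all genes, 113 of 18799 being lower). Without PDGFA 1 it called Grin2c alone, also lower (5.79%, 172 of 18816 being lower). In PDGFA tumours none was called in edgeR (background 0.303%), 3 had an unadjusted p under 0.05 (background 10.6%), and DESeq2 called 1, Grin2c (1.11% of all genes). Without PDGFA 1 the PDGFA comparison called 4, Grin2c, Grm3, Grm4 and Gabrd, all lower. In that setting 4.40% of all genes were called, with 676 higher and 152 lower of 18816.

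Counted by direction, the fitted change was below 0 for 32 of 43 subunits in IDH1_R132H (background 50.7%), 34 in IDH1WT (background 51.0%) and 30 in PDGFA tumours (background 49.5%). In IDH1_R132H, 17 subunits had all 3 tumours below every normal brain (background 18.8%) and 3 had all above (background 19.4%). For IDH1WT these counts were 15 (background 14.5%) and 3 (background 17.4%), and for PDGFA 10 (background 7.54%) and 1 (background 8.23%). In each group the share of subunits below normal brain was larger than that of all genes, and the share above was smaller.

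Side by side, the log2 fold change of Grin2c was -1.59 ± 0.36 in IDH1_R132H, -1.15 ± 0.35 in IDH1WT and -1.39 ± 0.36 in PDGFA tumours. For Grm3 the values were -0.88 ± 0.24, -0.78 ± 0.24 and -0.84 ± 0.24 in that order. For Grin3a they were 1.16 ± 0.32, 0.65 ± 0.32 and 0.27 ± 0.32, and for Grik4 0.65 ± 0.16, 0.40 ± 0.16 and 0.20 ± 0.16. Gabrd had -1.90 ± 0.51, -0.92 ± 0.48 and -0.52 ± 0.48, and Grm8 -1.06 ± 0.26, -0.63 ± 0.25 and -0.41 ± 0.25. Of these values, edgeR called the 6 of IDH1_R132H.

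Direct comparisons of the tumour groups called no subunit gene in edgeR, and no gene of the 17812 tested (background 0.0% in each of the 3); DESeq2 called none of the subunits. At an unadjusted p under 0.05 there was 1 subunit in IDH1_R132H against IDH1WT (background 2.67%), 5 in IDH1_R132H against PDGFA (background 10.9%) and 3 in IDH1WT against PDGFA (background 5.83%). These were named after their values were seen. The first was Grik5 (0.34 ± 0.14, adjusted p = 0.9996 in edgeR). In IDH1_R132H against PDGFA the log2 fold change was above 0 for Grin3a (0.89 ± 0.32, adjusted p = 0.382) and Grik4 (0.45 ± 0.16, adjusted p = 0.382) and below 0 for Gabrd (-1.38 ± 0.51, adjusted p = 0.388), Grm8 (-0.65 ± 0.26, adjusted p = 0.412) and Grik2 (-0.50 ± 0.17, adjusted p = 0.371). In IDH1WT against PDGFA the genes were Gria4 (0.59 ± 0.26, adjusted p = 0.837), Grik5 (-0.33 ± 0.14, adjusted p = 0.835) and Gabrg3 (-0.64 ± 0.23, adjusted p = 0.808). The calls of Grin3a, Grik4, Gabrd and Grm8 against normal brain were therefore not shown to be particular to IDH1_R132H: against IDH1WT the changes were 0.51 ± 0.32, 0.25 ± 0.16, -0.98 ± 0.51 and -0.43 ± 0.26.

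Subunit levels were also set against the neuron markers of the same library, as log2 CPM less the median log2 CPM of the 20 markers. By this measure 29 of 43 subunits were on average higher in tumours than in normal brain, with a median difference of 0.19, where without it 34 were lower. Against these markers Grin2c and Grm4 were below the normal brains in all 9 tumours: Grin2c at -1.73 to -1.51 in the normal brains and -3.82 to -1.92 in the tumours (median -2.33), and Grm4 at -1.40 to -1.24 in the normal brains and -3.52 to -1.48 in the tumours (median -2.08). Grin3a was on average 1.20 and Grik4 0.97 higher, and Grm5 0.72, with 8 of 9 tumours above the normal brains. With 12 forebrain excitatory neuron markers as the reference, 23 of 43 were higher and the median difference was 0.02, so the direction of the subunits as a group rests on the reference chosen. Grin2c was below the normal brains in all 9 tumours by this reference too, while Grm4 was in 8, with PDGFA 1 at 1.07 above the highest normal brain at 0.95. No test was made on these differences.

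Genes for proteins that work with the receptors were tested in the same fit, at the RNA level only. Of 20 auxiliary subunits of AMPA and kainate receptors, 1 was called higher and none lower in tumours: Cacng4, a transmembrane AMPA receptor regulatory protein that is also an oligodendrocyte precursor marker (2.47 ± 0.45, adjusted p = 0.0173 in edgeR). Its level was 28.3 ± 5.96 CPM in normal brain and 172 ± 102 CPM in tumours (SD, n = 3 and 9), while its relative Cacng2, or stargazin, was not called (-0.75 ± 0.23, adjusted p = 0.0779). Of 20 excitatory scaffold genes, 2 were called lower, the scaffolds Shank3 (-0.85 ± 0.20, adjusted p = 0.0328) and Shank2 (-0.65 ± 0.17, adjusted p = 0.0494), and none higher. Of 13 inhibitory scaffold and GABA-B auxiliary genes, 1 was called higher, Kctd12b (1.46 ± 0.38, adjusted p = 0.0443). Of 20 genes for making and transporting glutamate and GABA, Gls2, a glutaminase, was called lower (-0.85 ± 0.18, adjusted p = 0.0268) and Slc1a1, a neuronal glutamate transporter, higher (0.39 ± 0.10, adjusted p = 0.0499). Over all genes tested, 5.22% were called. Without normal brain 1 no gene was called in tumours, so these calls were lost. Without normal brain 2 or 3, 1 and 3 of all genes were called.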

How the data were processed

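Raw counts for 49671 Ensembl genes in 12 libraries were used as deposited. The submitters' processing notes name the build GRCm38 and the tools STAR 2.5.2b, featureCounts 1.5.1 (of Subread) and DESeq2 1.16.1. Not given in the sources used here were the annotation, the strand setting and the handling of multi-mapped reads. A second deposited table holds log2 values (rlog by its name) for 23792 genes and served as an alternative. GENCODE M21 on GRCm38 named 49412 genes. In R 4.3.3, edgeR 4.0.16 kept 17812 genes by filterByExpr (minimum count 10, total 15), scaled by TMM and fitted a robust quasi-likelihood model with 1 coefficient per group (8 residual degrees of freedom), for 7 comparisons; p-values were adjusted over all tested genes. TMM takes most genes as unchanged. Log2 CPM used a prior count of 2. Alternatives used DESeq2 1.42.0 and limma 3.58.1. The scripts were tested on simulated data. Subunit genes and lists were chosen with earlier results of these data known. Values in every library are given for subunits called in any comparison and, per family, for the highest mean and largest fitted rise and fall; some subunit genes enter the counts but are not reported here by name. Cell type lists covered neurons, glia, microglia and endothelium. Library numbers only name a library.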

Additional observations from a re-analysis of the deposited data

Results flagged for a closer look

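Of 43 subunits, 4 had 1 tumour far from the other 8 tumours, by a gap that chance gives in about 1 of 20 groups. Grik1 was lowest in IDH1_R132H 3 at 15.4 CPM (next 21.3). Grik2 was highest in PDGFA 1 at 107 CPM (next 73.6). Grm5 was lowest in IDH1WT 3 at 242 CPM (next 295). Gabre was highest in IDH1_R132H 3 at 4.14 CPM (next 2.35). IDH1_R132H 3 is the library with 35.6% of its counts in Gm42418, and PDGFA 1 the one with the lowest oligodendrocyte precursor marker sum; their part in these values was not tested.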

How the results depend on the processing

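Counts of called subunit genes depended on the processing. Signs of fold changes were compared between settings only for the subunits with values given in every library. Among these, 10 recomputed fold changes turned sign, all of Grik5 or Gria2. For the other subunits named, some with changes near 0, signs were not compared. Beside each count of subunits stands, in brackets, the share of all tested genes called in the same setting. For tumours against normal brain (2 called), DESeq2 called 7 (4.69%), edgeR with no low count filter 12 (5.19%), limma voom with sample quality weights 27 (33.7%), edgeR without IDH1_R132H 3 and PDGFA 1 together 11 (15.7%), and without IDH1_R132H 2 and PDGFA 2 together, a choice made after seeing the data, 0 (1.35%). For IDH1_R132H against normal brain (6 called) the counts were 13 (5.81%) with no filter, 13 (20.3%) with only the groups compared in the fit, 28 (41.1%) with voom weights and 0 (0%) without IDH1_R132H 2 and PDGFA 2. For IDH1WT against normal brain (0 called) they were 2 (2.88%) with DESeq2, 5 (3.66%) with no filter, 2 (8.53%) with only the groups compared, 14 (16.9%) with voom weights and 1 (6.96%) without IDH1_R132H 3 and PDGFA 1. For PDGFA against normal brain (0 called) they were 1 (1.11%) with DESeq2, 3 (2.25%) with no filter, 3 (2.45%) with voom weights and 4 (5.19%) without IDH1_R132H 3 and PDGFA 1. Between tumour groups, no filter gave 1 (0.186%) in IDH1_R132H against IDH1WT, Gabra6, lower, and 4 (1.48%) in IDH1_R132H against PDGFA, Gabra6, Gabrd and Grm4 lower and Grin3a higher, where voom weights gave 1 (2.22%), Grin3a. Leaving out 1 library at a time gave 0 to 9 for tumours, 0 to 9 for IDH1_R132H, 0 to 3 for IDH1WT and 0 to 4 for PDGFA against normal brain, and 0 between tumour groups, while the share of all genes called ran from 0% to 13.5%, 0% to 12.2%, 0% to 5.79% and 0% to 4.40% in the same order. The 0 for IDH1_R132H came without IDH1_R132H 2 or any 1 normal brain. The cause was not tested.

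Fitted changes near 0 turned their sign: Grik5 was -0.018 with no filter, -0.012 with voom weights, -0.009 without IDH1_R132H 2 and PDGFA 2 and -0.063 to 0.081 leaving out 1 library. Gria2 was -0.011 to 0.087 leaving out 1 library. With coding length, the mean share in tumours less that in normal brain was -0.69 percentage points for Grin2b of NMDA subunits, of the other sign by exon length, and -2.24 and -2.45 for Grin2c of NMDA and of Grin2 subunits. No paired analysis was possible because the labels give no replicate numbers. With 3 libraries a group, the median SE of the subunits on the log2 scale was 0.22 for tumours against normal brain. It was 0.274 to 0.277 for comparisons between single groups, so small changes could not be called. For subunits with few reads, such as Grm6 and Gabrr2, depth is the limit.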

Other observations

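Subunits differed in how much they varied among the 9 tumours. The SD of log2 CPM over the tumours was 0.14 for Grid1, 0.15 for Grm5 and 0.19 for Gria2, the 3 lowest of the 43. It was 2.56 for Gabra6, 0.85 for Grm4 and 0.84 for Gabrd, which with the rarely detected Grm6 (1.15) were the 4 highest. Over the normal brains Gabra6, Grm4 and Gabrd had 0.22, 0.05 and 0.24.

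Other cell type lists, tested in edgeR for tumours against normal brain, moved as follows. Endothelial markers had 6 higher and 0 lower of 12 called, with sums of 181 to 209 CPM in the normal brains and 234 to 386 CPM in the tumours. Microglia and macrophage markers had 0 higher and 0 lower of 15, with sums of 143 to 246 CPM in the normal brains and 48.4 to 510.0 CPM in the tumours. Myelinating oligodendrocyte markers had 1 higher and 0 lower of 10, with the highest sum in PDGFA 1 (11352 CPM). Astrocyte markers had 1 higher and 0 lower of 12, the gene being Gfap. Interneuron, forebrain excitatory, thalamic and striatal neuron markers had no call in either direction, with median log2 fold changes of -0.42, -0.36, -0.44 and -0.011. Their part in the subunit levels was not tested.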
